A study of Mus musculus with 13 samples.

Results

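The 7 genes described here encode 2 heparin-binding growth factors, pleiotrophin (Ptn) and midkine (Mdk), and 5 proteins that bind them, the receptor tyrosine phosphatase Ptprz1, the syndecans Sdc1, Sdc3 and Sdc4, and nucleolin (Ncl). They are 7 of the 32285 genes in the count matrices and were found there by gene symbol. Ptn was chosen by its measured values, as 1 of the genes with the largest difference between tumor and mucosa epithelium, so its values in that contrast are a description with no test. The other 6 were added for their known place beside Ptn, also with earlier results of these data known.

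The samples were 10 colon tumors and 3 pieces of adjacent normal mucosa from 3 C57BL/6J mice of the genotype ApcMin/+; p16cis/cis, kept on the supplemented diet. ApcMin is a germline mutation of Apc, the brake on Wnt signaling, and p16cis/cis stands for an engineered epimutation of p16, a cell cycle inhibitor. Every group carried both alleles and ate the same diet, which adds folic acid, vitamin B12, choline and betaine, so neither genotype nor diet was compared. Mouse A (24 weeks old) gave tumors 5 to 8 and mucosa 2, mouse B (23 weeks) gave tumors 9 and 10 and mucosa 3, and mouse C (20 weeks) gave tumors 1 to 4 and mucosa 1. Tumors of 1 mouse are separate tumors but not separate animals, and p-values over tumors measure the spread between these libraries. Mucosa was dissociated with EDTA and TrypLE and tumors with a tumor dissociation kit, so tissue and dissociation cannot be told apart. Transcripts were counted as unique molecular identifiers (UMIs) in single cells by a droplet method that reads the 3′ ends.

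In units of 1000000 UMIs, tumor libraries held 57.2 to 93.2 (median 79.8) and mucosa libraries 84.9 to 116 (median 110), and 108495 of 137591 barcodes were kept as cells, 85953 from tumors and 22542 from mucosa. Any pair of libraries shared 14 to 61 barcode sequences, at most 0.561% of the smaller library. The labels call 7 of the 13 libraries female, but all 13 had Y-linked transcripts at 103 to 129 CPM (counts per 1000000 UMIs of a library or cell class) and Xist at no more than 0.126 CPM, so the labelled sex was not used. Cells were clustered with the 7 genes and the other listed genes, 74 in all, held out, and each cluster was named from marker genes, with "-like" marking such names. Tumor epithelial-like cells, marked by Wnt targets such as Axin2, Nkd1 and Notum, numbered 12664 in tumors and 7 in mucosa.

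Pleiotrophin and midkine are small secreted proteins that bind heparan and chondroitin sulfate chains and act in development, nerve growth and tissue repair. Ptprz1 is a receptor phosphatase that carries chondroitin sulfate, and ligand binding is known to lower its phosphatase activity, so that its substrates stay phosphorylated. Syndecans are membrane proteoglycans whose heparan sulfate holds growth factors near their receptors, and nucleolin, an abundant nucleolar protein of ribosome production, can also reach the cell surface and bind both ligands.

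In the mm10 annotation Ptn lies on chromosome 6 from 36714929 to 36810220 on the minus strand, and Ptprz1 lies on the same chromosome from 22875502 to 23052916 on the plus strand. The other genes are Mdk (chromosome 2, 91929805 to 91932297, minus), Sdc4 (chromosome 2, 164424247 to 164443887, minus), Sdc1 (chromosome 12, 8771323 to 8793715, plus), Sdc3 (chromosome 4, 130792537 to 130826319, plus) and Ncl (chromosome 1, 86344719 to 86359400, minus), and all 7 are protein coding. RefSeq promoter windows of build GRCm38.p6, from 250 bases before to 50 bases after the start, were matched for 6 of the 7 genes, without Mdk. The windows of Ptn (chr6:36810130-36810429, minus strand) and Ptprz1 (chr6:22875252-22875551, plus strand) are printed because these ligand and receptor genes had nearly all of their UMIs in the same cell class. Capitals mark the letters GGGCGG, the core of a GC box, on either strand.
Ptn: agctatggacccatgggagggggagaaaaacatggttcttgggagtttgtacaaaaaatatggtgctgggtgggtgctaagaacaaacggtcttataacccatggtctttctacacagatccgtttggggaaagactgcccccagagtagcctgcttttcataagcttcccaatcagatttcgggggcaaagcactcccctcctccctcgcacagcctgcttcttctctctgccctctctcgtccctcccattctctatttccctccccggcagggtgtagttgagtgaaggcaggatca
Ptprz1: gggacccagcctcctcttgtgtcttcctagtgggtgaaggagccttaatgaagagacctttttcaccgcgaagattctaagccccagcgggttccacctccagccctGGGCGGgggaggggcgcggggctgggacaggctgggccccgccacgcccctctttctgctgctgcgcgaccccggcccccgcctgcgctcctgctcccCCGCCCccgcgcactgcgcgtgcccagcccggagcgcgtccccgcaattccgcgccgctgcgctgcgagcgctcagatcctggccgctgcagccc
The Ptn window was 52.0% G or C, close to the median of 52.7% over 32851 windows, and the Ptprz1 window was 71.7%. Both strands were searched for the TATA box (TATAAA), the GC box core, the TCF/LEF core (CTTTGAT) and the AP-1 site (TGANTCA). The Ptn window held none of these, and the Ptprz1 window held the GC box core at 143 and 45 bases before the start and none of the others, so only that window has capitals. The Sdc1, Sdc3 and Ncl windows held 3 GC box cores each and the Sdc4 window held 4, and no matches overlapped. Over all windows, 35.7% held a GC box core, 13.6% a TATA box, 3.73% a TCF/LEF core and 7.81% an AP-1 site.

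Ptn transcripts in the tumors came from tumor epithelial-like cells. These cells held 82294 of the 83491 Ptn UMIs in tumors, 98.6%, with 32.8% of all UMIs. Their Ptn level ranged from 113 CPM in tumor 2 to 621 CPM in tumor 7, with a mean of 363 ± 178 CPM (SD, n = 10 tumors). The mouse C tumors 1 to 4 had 568, 113, 351 and 357 CPM, the mouse A tumors 5 to 8 had 548, 175, 621 and 379 CPM, and the mouse B tumors 9 and 10 had 356 and 157 CPM. High and low tumors were thus found within each mouse, and the highest tumor was 5.50 times the lowest.

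Outside the tumor epithelial-like class, fibroblast-like cells had Ptn at 283 CPM in tumor 5 and 22.2 CPM in tumor 9, the only tumors with at least 20 such cells. Paneth-like cells, marked by lysozyme and defensins, had 11.7 ± 10.1 CPM (n = 9), and neutrophil-like cells, which make up much of these tumors, had 2.35 ± 1.97 CPM (n = 10). Erythrocyte-like cells held 133 Ptn UMIs, 0.159% of those in tumors with 0.647% of all UMIs. Unnamed cells had 48.3 ± 41.1 CPM. They join a low-depth epithelial cluster (1391 tumor cells, median 810 UMIs) and an immune cluster led by Cox6a2 and Siglech (349 tumor cells, median 5836.5 UMIs). Absorptive-like cells of the tumors held 3 Ptn UMIs. In mucosa, all cells together held 7 Ptn UMIs, of which 5 were in the 7 tumor epithelial-like cells, 1 in an enteroendocrine-like cell and 1 in an unnamed cell. Goblet-like, absorptive-like and other epithelial cells of the mucosa had 0 Ptn UMIs.

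Midkine had low counts by comparison and another distribution. Its level was 42.8 CPM in fibroblast-like cells, the mean of 85.6 in tumor 5 and 0 in tumor 9. Next came natural killer cell-like cells (4.41 ± 3.07 CPM), neutrophil-like cells (3.84 ± 1.79) and C1q macrophage-like cells (3.65 ± 0.859), which overlapped in range. Tumor epithelial-like cells had 1.48 ± 1.07 CPM (range 0.327 to 3.80, n = 10). Of the Mdk UMIs in tumors, 24.3% were in tumor epithelial-like, 22.5% in neutrophil-like, 13.8% in C1q macrophage-like and 12.8% in Ly6c monocyte-like cells.

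**Figure D1:**
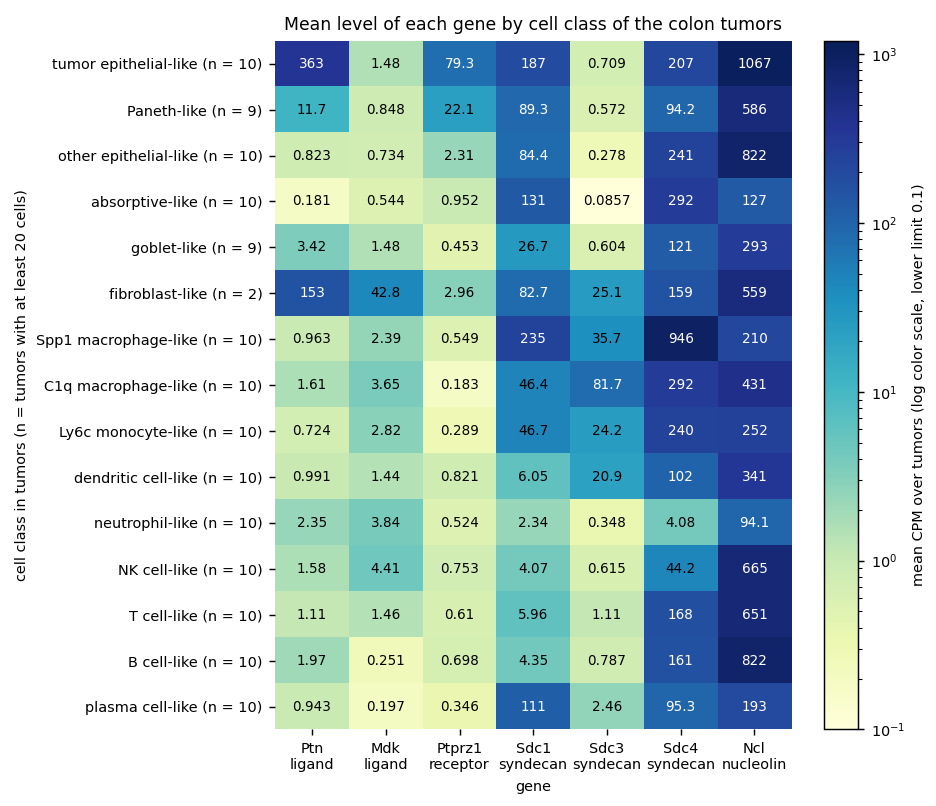
Levels of the 7 genes by cell class in the tumors, as mean CPM of summed UMIs over tumors with at least 20 cells of the class, on a log color scale (enteroendocrine-like, mast cell-like, erythrocyte-like and unnamed cells are not drawn). Ptn and Ptprz1 were highest in tumor epithelial-like cells (363 and 79.3 CPM), Sdc3 in C1q macrophage-like cells (81.7 CPM) and Sdc4 in Spp1 macrophage-like cells (946 CPM).

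Ptprz1, the phosphatase receptor, was found in the same class as Ptn. Tumor epithelial-like cells held 17164 of its 17793 UMIs in tumors (96.5%), at 79.3 ± 19.1 CPM (n = 10). The lowest tumor had 58.0, the median 79.8 and the highest 108 CPM, a 1.86-fold range against the 5.50-fold range of Ptn. Paneth-like cells came next with 22.1 ± 10.6 CPM, below every tumor's tumor epithelial-like level, and other epithelial cells had 2.31 ± 1.67 CPM. All mucosa cells together had 11 Ptprz1 UMIs.

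The number of Ptn UMIs per Ptprz1 UMI differed between classes. It was 4.79 in tumor epithelial-like cells, 4.31 in neutrophil-like cells and 4.24 in unnamed cells, against 0.330 in Paneth-like (95 and 288 UMIs) and 0.256 in other epithelial cells (20 and 78 UMIs). Fibroblast-like cells had 202 Ptn and 3 Ptprz1 UMIs. The other immune classes, from few UMIs, ranged from 1.04 in dendritic cell-like (26 and 25 UMIs) and 1.63 in T cell-like cells (26 and 16) to 7.73 in C1q macrophage-like cells (85 and 11). The low counts of both genes outside tumor epithelial-like cells thus had no single ratio, and the part of free RNA in them was not tested.

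Ptn was unevenly spread among tumor epithelial-like cells. Before any correction for depth, 41.1% of these cells had a Ptn UMI, from 15.9% to 68.3% by tumor. With each cell thinned to 1000 UMIs (47 shallower cells left out), 17.4% had one (95% exact binomial interval 16.7 to 18.1%, counting error only), from 6.28% to 28.9% by tumor. Neutrophil-like cells, taken as background for Ptn and Ptprz1, had 0.630% unthinned and 0.231% at 1000 UMIs, with a median depth of 2592 UMIs against 12075. The tenth of cells with most Ptn held 53.7% to 93.4% of a tumor's Ptn UMIs, and the highest single cell of a tumor had 78 to 329.

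Ptprz1 had a UMI in 50.9% of tumor epithelial-like cells unthinned and in 9.25% at 1000 UMIs, against a background of 0.158% and 0.0423% in neutrophil-like cells. The share for Mdk at 1000 UMIs was 0.198% in tumor epithelial-like cells, 25 of 12617 cells. Neutrophil-like cells had 0.423%, but their Mdk level was among the higher ones, so they are no background for this gene.

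Over all tumor epithelial-like cells, the shares with a Ptprz1 UMI were close in cells with and without a Ptn UMI. At 1000 UMIs per cell, 9.35 ± 4.37% of Ptn-positive and 9.33 ± 2.60% of Ptn-negative tumor epithelial-like cells had a Ptprz1 UMI (mean ± SD, n = 10 tumors, 2196 and 10421 cells), and the positive share was higher in 4 of 10 tumors. For Ncl the shares were 50.2% and 57.9%, lower among Ptn-positive cells in every tumor, with a difference of -7.71 ± 3.85 percentage points. For Sdc4 they were 12.8% and 17.4%, higher among Ptn-positive cells in 1 of 10 tumors. These shares mix clusters that differ in Ptn and are described next. Within the first cluster, Ptprz1 was found in 5.16% of Ptn-positive and 7.92% of Ptn-negative cells (positive share higher in 2 of 9 tumors), and within the second in 10.8% and 12.7% (higher in 3 of 10). The direction for Ncl turned in the first cluster, with 65.6% and 61.8% (higher in 6 of 9 tumors), and was 45.0% against 50.4% in the second (higher in 0 of 10). Sdc4 was less often found in Ptn-positive cells of both clusters, with 11.4% against 17.8% and 12.9% against 16.4%. These are descriptions, since cells of 1 tumor are not replicates.

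The tumor epithelial-like cells fell into 2 clusters that differed in Ptn. The first, of 7228 tumor cells and led by Krt36, Thbs2, Lix1 and Onecut2, had Ptn at 137 ± 87.0 CPM, from 12.3 in tumor 6 to 294 in tumor 7. The second, of 5436 tumor cells and led by Mt4, Wnt6, Wnt10a and Wif1, had 614 ± 213 CPM, from 233 in tumor 2 to 887 in tumor 1. The second was higher in 10 of 10 tumors, by 2.38 to 27.9 times (median 5.04).

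**Figure D2:**
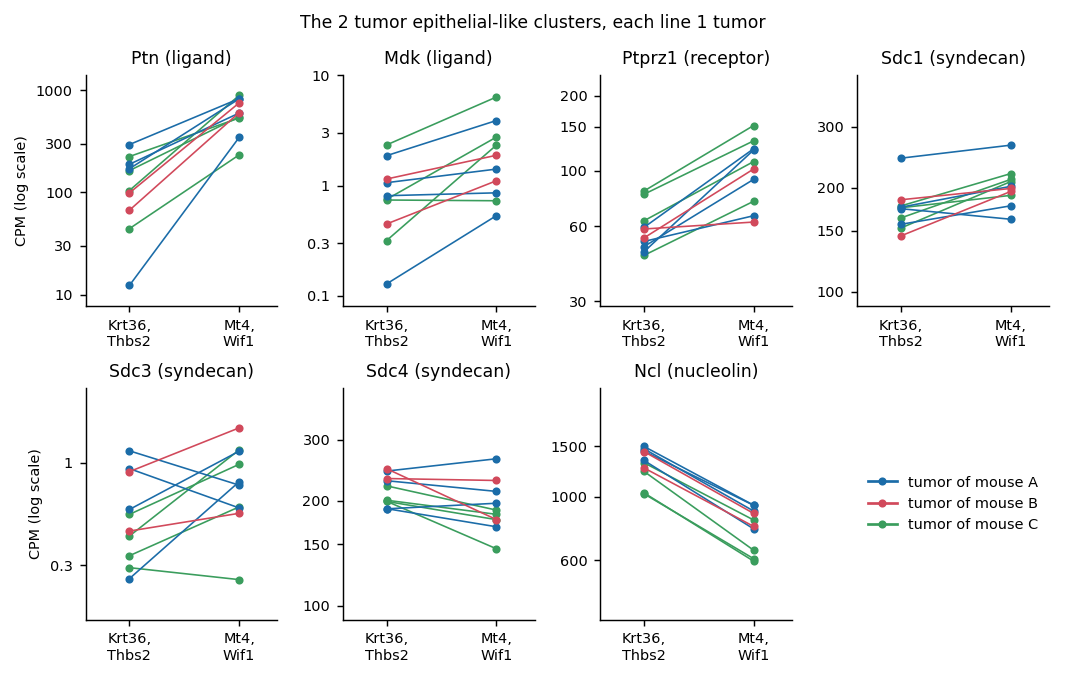
Level of each gene (CPM, log axis) in the first (Krt36, Thbs2) and second (Mt4, Wif1) tumor epithelial-like cluster, with 1 line per tumor colored by mouse. Ptn was 2.38 to 27.9 times as high in the second cluster and Ptprz1 1.07 to 2.56 times, while Ncl was 0.531 to 0.648 times.

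Ptprz1 also had the higher level in the second cluster, 103 ± 29.5 against 59.3 CPM, in 10 of 10 tumors. Sdc1 was higher there in 9 of 10 tumors (203 against 175 CPM), Mdk in 9 (2.18 against 0.960 CPM) and Sdc3 in 7 (0.835 against 0.586 CPM). Sdc4 was higher there in 2 of 10 tumors (194 against 215 CPM). Ncl was lower in every tumor, at 787 ± 129 against 1303 ± 171 CPM. Cells of the second cluster were deeper (median 15920 against 9636.5 UMIs), and clusters of the same cells give no test. The second cluster held 55.8, 34.6, 39.2, 45.3, 51.3, 41.2, 56.0, 46.6, 27.5 and 19.2% of the tumor epithelial-like cells of tumors 1 to 10. The highest shares were those of tumors 7 and 1, with the highest Ptn levels, but tumor 9 had a lower share than tumors 2 and 6 and a higher Ptn level.

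The syndecans were shared between epithelium and myeloid cells. Sdc1, known from epithelia and plasma cells, was highest in Spp1 macrophage-like cells at 235 ± 70.0 CPM (104 to 341), and the tumor epithelial-like level of 187 ± 27.0 CPM (154 to 254) lay within that range. The Spp1 macrophage-like name comes from 6 markers, Spp1, Arg1, Inhba, Hmox1, Ptgs2 and Il1a. Its clusters were led by Ccl24, Inhba, Il1a and Il6 and by Hspa1a, Zeb2 and Ptgs2, and Spp1 led neither. Absorptive-like cells had 131 ± 23.3 and plasma cell-like cells 111 ± 20.2 CPM, which overlapped, and neutrophil-like cells 2.34 CPM. Of the Sdc1 UMIs in tumors, 59.3% were in tumor epithelial-like and 13.4% in Spp1 macrophage-like cells.

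Sdc3, best known from the nervous system, was mostly a myeloid transcript in these tumors. C1q macrophage-like cells had 81.7 ± 15.9 CPM and held 51.5% of its UMIs with 7.90% of all UMIs, and their lowest tumor (66.5) was above the highest of any other class. Spp1 macrophage-like cells had 35.7 ± 14.1, Ly6c monocyte-like cells 24.2 ± 7.05 and dendritic cell-like cells 20.9 ± 6.04 CPM, which overlapped. Fibroblast-like cells held 34 Sdc3 UMIs, 0.412% of those in tumors with 0.207% of all UMIs. Tumor epithelial-like cells had 0.709 ± 0.268 CPM.

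Sdc4, which links matrix to the cytoskeleton at adhesion sites, reached 946 ± 234 CPM in Spp1 macrophage-like cells, where the lowest tumor (630) was above the highest of every other class. C1q macrophage-like and absorptive-like cells both had 292 CPM, with SDs of 79.5 and 70.9, Ly6c monocyte-like cells 240 ± 23.3 and tumor epithelial-like cells 207 ± 27.7 CPM. Spp1 macrophage-like cells held 26.4% of the Sdc4 UMIs with 6.06% of all UMIs, and tumor epithelial-like cells 30.8%. Neutrophil-like cells had 4.08 ± 2.68 CPM.

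Ncl was found in every class. Tumor epithelial-like cells had 1067 ± 166 CPM (777 to 1341) and B cell-like and other epithelial cells 822 CPM each, with SDs of 149 and 201, so the ranges overlapped. Natural killer cell-like cells had 665 and T cell-like cells 651 CPM, and the lowest levels were 127 ± 35.3 CPM in absorptive-like, 122 ± 92.6 CPM in erythrocyte-like (n = 4) and 94.1 ± 17.5 CPM in neutrophil-like cells.

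The comparison of tumor with adjacent mucosa was made on the summed UMIs of epithelial cells, 16613 cells in tumors and 14795 in mucosa, with adjacent mucosa as the control tissue. Ptn was at 74.5 CPM in the lowest, 288 in the median and 500 in the highest tumor, and at 0, 0.0828 and 0 CPM in mucosa 1, 2 and 3. Tumors held 82435 and mucosa 6 Ptn UMIs, all 6 in mucosa 2, and 5 of them in the few tumor epithelial-like cells of that library. Pooled levels were 291 and 0.0287 CPM, a ratio of 10143 (95% counting interval 4660 to 27639). Without mucosa 1 the ratio was 7300, without mucosa 3 it was 6354, and without mucosa 2, where the mucosa count was 0, Ptn was at least 13264-fold higher against a floor of 3 counts over the group.

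Of the other 6 genes, 5 were higher and 1 lower in tumor epithelium (edgeR quasi-likelihood test, Benjamini-Hochberg adjusted p under 0.05), where 64.3% of the 15514 genes tested passed, 34.1% as higher and 30.3% as lower. With so many genes past the test, a call alone sets none of these genes apart. The edgeR scaling also shifts fitted values below those of CPM. The median log2 ratio of CPM was 0.19 over the 10012 genes with a mean of at least 5 CPM. The fitted median was 0.05 over all 15514 genes tested. The gene sets differ, so these medians do not give the size of the shift. Leaving Ptn aside, tumor and mucosa libraries did not overlap for 4 of the other 6 genes (Ptprz1, Sdc1, Sdc3 and Ncl), beside 46.2% of all genes tested. Ptprz1, Sdc3 and Mdk, all among the 5 called higher, had 7, 19 and 80 UMIs in mucosa and passed the count filter through the tumors. Fewer or more cells of an epithelial class and less or more RNA per cell cannot be told apart in such sums, and the makeup differed: goblet markers summed to 1370 to 10450 CPM in tumors and 18706 to 38752 in mucosa, and Paneth markers to 279 to 5897 CPM in tumors and 5.13 to 32.9 in mucosa, where Mptx2, Defa30 and Defa17 were at 0. The defining epithelial markers were present in both (8379 to 13624 and 8457 to 13402 CPM).

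**Figure D3:**
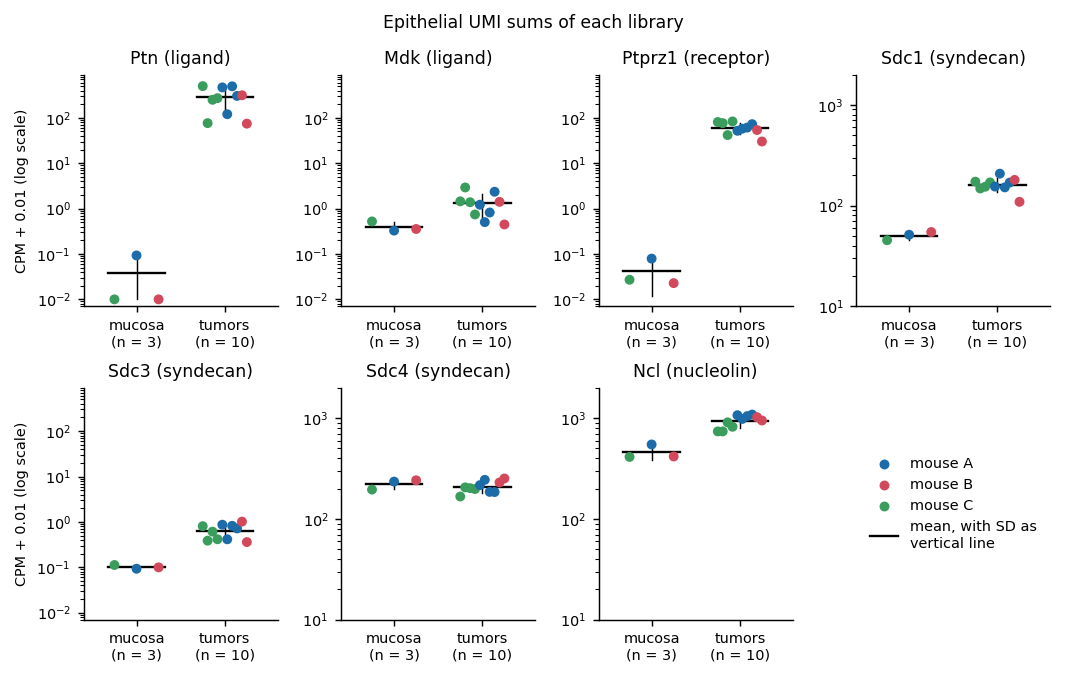
Level of each gene in the epithelial cells of each library, as CPM + 0.01 on a log axis, with tumors and mucosa as points and the mean and SD over libraries as lines (SD cut at 0). Tumors and mucosa did not overlap for Ptn, Ptprz1, Sdc1, Sdc3 and Ncl, and overlapped for Sdc4 and Mdk.

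Ptprz1 rose in tumor epithelium. It was at 30.1, 59.3 and 83.4 CPM in the lowest, median and highest tumor and at 0.0170, 0.0690 and 0.0128 CPM in mucosa 1, 2 and 3, from 17550 and 7 UMIs. The pooled ratio was 1851 (counting interval 898 to 4604). The fitted log2 fold change was 10.43 ± 0.53 (SE, edgeR), a size that depends on the prior count of the fit. Since Ptprz1 passed the count filter through the tumors, no p is given here. Without mucosa 2, which had 5 of the 7 UMIs, the pooled ratio was 4236.

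Sdc1 rose as well, with tumors at 109, 162 and 208 CPM and mucosa at 45.4, 51.4 and 54.7 CPM, a log2 fold change of 1.40 ± 0.14 (adjusted p = 2.74e-06, edgeR). Ncl rose by 0.75 ± 0.15 on the log2 scale (adjusted p = 0.000538, edgeR), from 412, 548 and 417 CPM in mucosa to 739, 965 and 1086 CPM in the lowest, median and highest tumor. For both genes every tumor was above every mucosa library.

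Sdc3 rose from low counts, 176 UMIs in tumors and 19 in mucosa. Tumors had 0.349, 0.654 and 1.00 CPM and mucosa 0.102, 0.0828 and 0.0895 CPM, a log2 fold change of 2.47 ± 0.40 (SE, edgeR). Sdc3 too passed the count filter through the tumors, so no p is given here. Markers of C1q macrophages, the class with most Sdc3, summed to 17.0 to 83.2 CPM in the tumor epithelial sums and 6.82 to 8.53 CPM in mucosa, all 7 detected in both, and their part in this difference was not tested.

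Sdc4 fell by 0.38 ± 0.13 on the fitted log2 scale (adjusted p = 0.0234, edgeR), with tumors at 167, 204 and 252 CPM and mucosa at 196, 235 and 242 CPM, which overlapped. Mean levels were 209 ± 27.2 CPM in tumors and 224 ± 24.9 CPM in mucosa, so the size of the fitted fall depends on the edgeR scaling. The Sdc4 call was lost without mucosa 2 (adjusted p = 0.0842, edgeR) and without mucosa 3 (0.106). Mdk rose by 1.48 ± 0.54 (SE, edgeR), with tumors at 0.437, 1.29 and 2.91 CPM and mucosa at 0.511, 0.317 and 0.345 CPM, which overlapped. Mdk too passed the count filter through the tumors, so no p is given here. Its call was lost without mucosa 2 or mucosa 3.

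Other genes of the system were taken from lists of known partners and enzymes, chosen with earlier results of these data known. Of 25 other binding partners, 20 were tested, and 11 were higher, 3 lower and 6 not past the test, beside the 64.3% of all genes that passed. The median log2 fold change was 0.63, against 0.05 over all genes. Gpc1, a glypican that carries heparan sulfate, rose from 0.323 ± 0.129 to 28.6 ± 9.53 CPM (log2 fold change 6.14 ± 0.45, SE, edgeR). Cspg5, a chondroitin sulfate proteoglycan (4.75 ± 0.54), the glypican Gpc2 (3.42 ± 0.38) and the receptor Notch2 (2.45 ± 0.25) also rose. Gpc1, Cspg5 and Gpc2, with 70, 38 and 46 UMIs in mucosa, passed the count filter through the tumors, so no p is given for them. Notch2 was at 8.13 CPM in the tumor epithelial sums and 30.8 CPM over all tumor cells. The part of other cells in its rise was not tested. Sdc2, another syndecan, fell by 2.82 ± 0.31, from 24.9 to 4.23 CPM (adjusted p = 5.64e-06, edgeR). The lipoprotein receptor Lrp1 fell by 2.06 ± 0.29 and the proteoglycan Vcan by 1.73 ± 0.42, both with overlapping libraries. Alk, the receptor tyrosine kinase to which both ligands have been linked, and Itgb3, Ncan, Alkal1 and Alkal2 had too few counts to be tested.

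**Figure D4:**
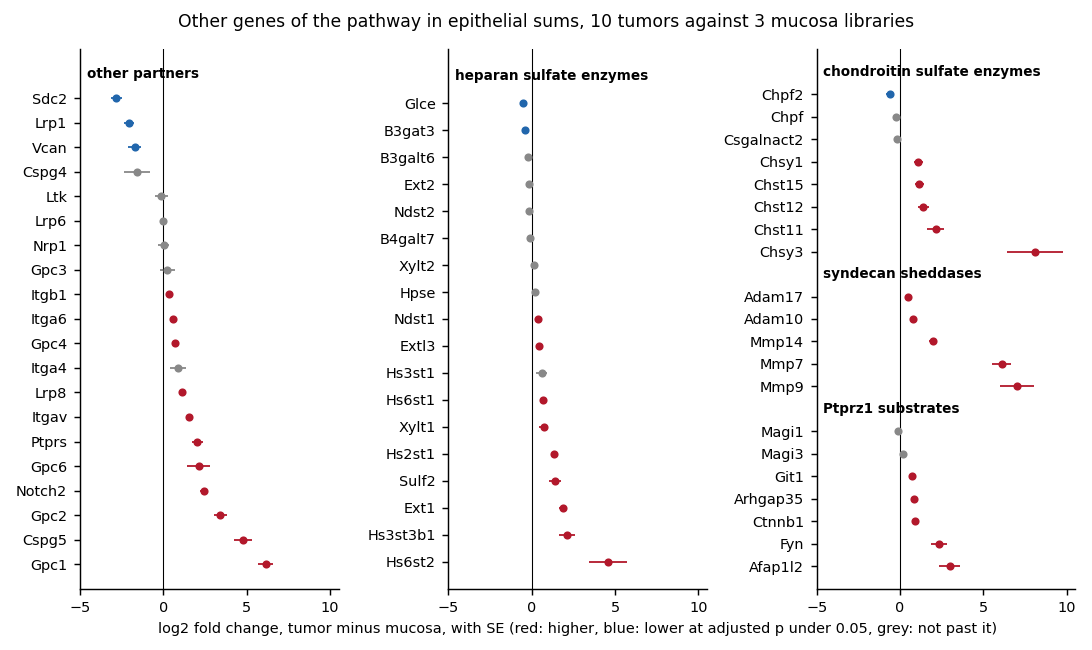
Fitted log2 fold change of tumor over mucosa epithelium, 1 point per gene tested, for each gene list, with genes past the adjusted p of 0.05 marked. The 5 syndecan sheddases were all higher in tumors, beside 34.1% of all genes tested, while the other lists held genes in both directions or not past the test. The values of Chsy3, Mmp9 and Hs6st2, with 1, 2 and 3 UMIs in mucosa, depend on the prior count of the fit. These genes passed the count filter through the tumors.

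All 5 listed proteases that cut syndecans from the cell surface rose. Mmp7 went from 5.41 ± 1.46 to 448 ± 184 CPM (6.09 ± 0.55, adjusted p = 1.49e-06, edgeR) and Mmp14 from 22.8 to 109 CPM (1.97 ± 0.22). Mmp9, known as a neutrophil protease, had 531 UMIs in tumors and 2 in mucosa. It is counted among the 5 but passed the count filter through the tumors. Its level was 1.99 CPM in the tumor epithelial sums against 115 CPM over all tumor cells. Neutrophil markers, all 7 detected in both tissues, summed to 177 to 840 CPM in the tumor epithelial sums and 6.78 to 22.5 CPM in the mucosa ones, and their part in the Mmp9 difference was not tested. Adam10 rose by 0.78 ± 0.11 and Adam17 by 0.46 ± 0.09. The median of the list was 1.97, and tumors and mucosa did not overlap for any of the 5. Over all genes tested, 34.1% were higher in tumors and 46.2% did not overlap.

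Of 7 listed Ptprz1 substrates, 5 rose and 2 (Magi1 and Magi3) were not past the test, with a median log2 fold change of 0.85. Of all genes tested, 64.3% passed, 34.1% as higher in tumors. Ctnnb1, the Wnt effector beta-catenin, rose from 150 to 337 CPM (0.88 ± 0.17, adjusted p = 0.000438, edgeR), the kinase Fyn by 2.34 ± 0.47, Arhgap35 by 0.85 ± 0.07 and Afap1l2, with 110 and 8 UMIs, by 2.98 ± 0.64. Afap1l2 passed the count filter through the tumors. Fyn was at 6.11 CPM in the tumor epithelial sums, against 129 CPM in T cell-like cells of tumors. T cell markers, all 7 detected in both tissues, summed to 6.48 to 24.1 CPM in the tumor epithelial sums. In the mucosa sums they had 2.62 to 8.02 CPM, and their part in the Fyn difference was not tested.

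Of 19 listed heparan sulfate enzymes, 18 were tested and 9 rose, 2 fell and 7 were not past the test (median 0.40), a share of calls close to the 64.3% of all genes. Ext1, a chain polymerase, rose from 9.78 to 43.2 CPM (1.86 ± 0.24, adjusted p = 2.32e-05, edgeR), the sulfotransferase Hs3st3b1 by 2.14 ± 0.48 and the sulfatase Sulf2 by 1.39 ± 0.35. Hs6st2, counted among the 9, had 129 UMIs in tumors and 3 in mucosa and passed the count filter through the tumors. The epimerase Glce fell by 0.55 ± 0.11 and B3gat3, of the linker to the core protein, by 0.42 ± 0.10, both with overlapping libraries. Mean B3gat3 was 28.5 CPM in tumors and 31.6 in mucosa, so the size of its fitted fall depends on the edgeR scaling. Of 11 chondroitin sulfate enzymes, 8 were tested and 5 rose, 1 fell and 2 were not past the test (median 1.12). Chsy3 and Chst12, counted among the 5, had 712 and 236 UMIs in tumors and 1 and 52 in mucosa. Both also passed the count filter through the tumors. The sulfotransferases Chst11, Chst12 and Chst15 rose by 2.14 ± 0.51, 1.39 ± 0.33 and 1.15 ± 0.28, with overlapping libraries for Chst11. Chst11 was at 5.52 CPM in the tumor epithelial sums and 22.5 CPM over all tumor cells. The part of other cells in its rise was not tested. Chpf2, a polymerizing factor, fell by 0.61 ± 0.21, from 9.25 to 7.38 CPM, with overlapping libraries.

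In sums over all cells of a library, where the cell mix differs between the tissues, 4 of the 6 genes other than Ptn were higher in tumors, where 35.9% of the genes tested were higher and 69.8% passed in either direction. Ptprz1, among these 4, had 11 UMIs in mucosa and passed the count filter through the tumors. Mdk went from 0.448 ± 0.193 to 2.04 ± 0.563 CPM (log2 fold change 2.20 ± 0.31, adjusted p = 2.82e-05, edgeR) and Sdc3 from 0.394 ± 0.291 to 12.6 ± 4.90 CPM (5.04 ± 0.52, adjusted p = 1.81e-06, edgeR). Markers of C1q macrophages summed to 3107 to 8372 CPM in these tumor sums. Sdc4 (0.07 ± 0.15, adjusted p = 0.704) and Ncl (0.32 ± 0.14, adjusted p = 0.0505) were not past the edgeR test, but Ncl passed it with the mouse as a block (0.33, adjusted p = 0.0209).

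T cell-like cells, present in both tissues, had a higher Sdc4 level in tumors. Tumors ranged from 117 to 257 CPM (168 ± 44.5, n = 10) and mucosa 1, 2 and 3 had 20.2, 34.8 and 21.3 CPM, a log2 fold change of 2.89 ± 0.24 (adjusted p = 2.89e-08, edgeR) with no overlap. Of all genes tested in these cells, 41.7% passed, 20.4% as higher in tumors, and 28.9% did not overlap.

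Different clusters held most of this class in the tissues, and the clusters differed in Sdc4. Cluster 7, led by Il17a, Icos, Tnfrsf4 and Cd4, held 4313 tumor and 392 mucosa cells, and cluster 8, led by Cd160, Gzma and gamma delta T cell receptor genes, held 453 tumor and 4164 mucosa cells. In cluster 7, Sdc4 was at 193 ± 50.1 CPM in tumors (142 to 285, n = 10) and at 120, 88.9 and 136 CPM in mucosa 1, 2 and 3, so that tumors were above mucosa without overlap. In cluster 8 it came from 14 UMIs in all in the 8 tumors with at least 20 cells, a level of 7.0 ± 6.02 CPM (mean ± SD), and was at 7.16, 31.5 and 11.4 CPM in mucosa, which overlapped. Fitted on cluster 7 alone, where 11.9% of genes passed, the log2 fold change of Sdc4 was 0.88 ± 0.23 (adjusted p = 0.0128, edgeR), against the 2.89 of the summed class.

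Ncl in T cell-like cells was at 651 ± 93.6 CPM in tumors and 543 ± 91.9 in mucosa (log2 fold change 0.39 ± 0.13, adjusted p = 0.0238, edgeR), with overlap, and the call was lost without mucosa 1 (0.114) or mucosa 3 (0.0913) and in cluster 7 alone (0.43 ± 0.15, adjusted p = 0.0661, edgeR). Sdc1 had 5.96 and 4.94 CPM, from 110 and 36 UMIs, and was not past the test (0.58 ± 0.61, edgeR). It passed the count filter through the tumors, so no p is given here. Cluster 8 of mucosa 2 held 23 of the 36 UMIs, and without mucosa 2 the fold change was 1.95. Ptn, Mdk, Ptprz1 and Sdc3 had too few counts in these cells to be tested.

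In B cell-like cells, where 40.3% of genes passed and 18.6% as higher in tumors, both genes tested rose. Ncl went from 437 ± 56.4 to 822 ± 149 CPM (0.92 ± 0.19, adjusted p = 0.000452, edgeR), and Sdc4 from 85.9 ± 28.9 to 161 ± 36.0 CPM (0.91 ± 0.21, adjusted p = 0.00128, edgeR) with overlap. In plasma cell-like cells 14.6% of genes passed, and Sdc1, the classical plasma cell surface proteoglycan CD138, rose from 82.5 ± 13.6 to 111 ± 20.2 CPM (0.86 ± 0.17, adjusted p = 0.00337, edgeR) with overlap. The edgeR scaling shifts these plasma cell values. The median log2 ratio of CPM was -0.45 over the 6069 genes with a mean of at least 5 CPM. The fitted median was 0.03 over all 9162 genes tested, a different set. Ncl in plasma cell-like cells was at 193 CPM in tumors and 211 in mucosa, with a fitted log2 fold change of 0.33 ± 0.15 (adjusted p = 0.146), so its direction depends on that scaling. Sdc3, with 147 and 2 UMIs (adjusted p = 0.0747, and 0.0362 with the mouse as a block), and Sdc4 (0.44 ± 0.23, adjusted p = 0.214) were not past the edgeR test. In these cells Sdc3 passed the count filter through the tumors.

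The tissue difference itself was compared between T cell-like and epithelial cells, with the library as a block, where 36.2% of genes differed. Sdc4 differed by 3.24 ± 0.21 on the log2 scale (adjusted p = 3.66e-09, edgeR), higher for T cell-like cells. With cluster 7 in place of all T cell-like cells this was 1.29 ± 0.22 (adjusted p = 0.000302, edgeR). Ncl differed by -0.36 ± 0.12 (adjusted p = 0.0253, edgeR), a call lost without mucosa 3 (0.10) and with cluster 7 alone (0.297). Sdc1, which passed the count filter in T cell-like cells through the tumors, was not past this test (-0.72 ± 0.59, edgeR). Fits of the other 4 genes are not read as results, because these genes had too few counts in T cell-like cells to be tested there. Ptprz1, for example, had 16 and 4 UMIs in T cell-like cells of tumors and mucosa.

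Across the 10 tumors, the Ptn level of tumor epithelial-like cells was set against that of each other gene on the log2 CPM scale, with exact two-sided permutation within mouse and Benjamini-Hochberg adjustment over 6 relations. Ptn and Ptprz1 showed no relation past the test: r was -0.23 (exact permutation p = 0.455, adjusted 0.889), Spearman's rho was -0.04 (exact permutation p = 0.919), and within mice r was -0.40. Tumor 2, with the lowest Ptn, had the highest Ptprz1 (108 CPM). Relations with Mdk (r = 0.05), Sdc1 (-0.19) and Ncl (-0.04) were not past the test either, each with an adjusted p of 0.889 by the exact permutation.

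Sdc3 was higher where Ptn was higher, with r = 0.84 (exact permutation p = 0.00347, adjusted 0.0208), rho = 0.72 (exact permutation p = 0.00781) and r = 0.92 within mice, though from 5 to 25 Sdc3 UMIs per tumor. C1q macrophage-like cells held 51.5% of the Sdc3 UMIs in tumors and tumor epithelial-like cells 1.86%, and the part of free RNA in this relation was not tested. Sdc4 was lower where Ptn was higher, with r = -0.62 (exact permutation p = 0.00868, adjusted 0.0260), rho = -0.64 (exact permutation p = 0.00434) and r = -0.76 within mice. Without tumors 2 and 10, farthest from the median Ptn level, r was 0.61 for Sdc3 and -0.72 for Sdc4, both with an adjusted p of 0.111 by exact permutation over the 144 arrangements that remain. Sdc1, with r = -0.91 in that setting, had the same adjusted p. The Sdc3 call was also lost without tumor 1, 2 or 6 alone (adjusted p = 0.0833 each by exact permutation over 288 arrangements), with r at 0.83, 0.72 and 0.84. The Sdc4 call was lost without tumor 1, 2 or 6 (adjusted p = 0.104 each by exact permutation), 3 or 4 (0.0521 each), 7 (0.0625) or 10 (0.271), with r from -0.76 to -0.55. The second tumor epithelial-like cluster had more Ptn and less Sdc4 than the first and its share differed between tumors, and its part in these relations was not tested.

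**Figure D5:**
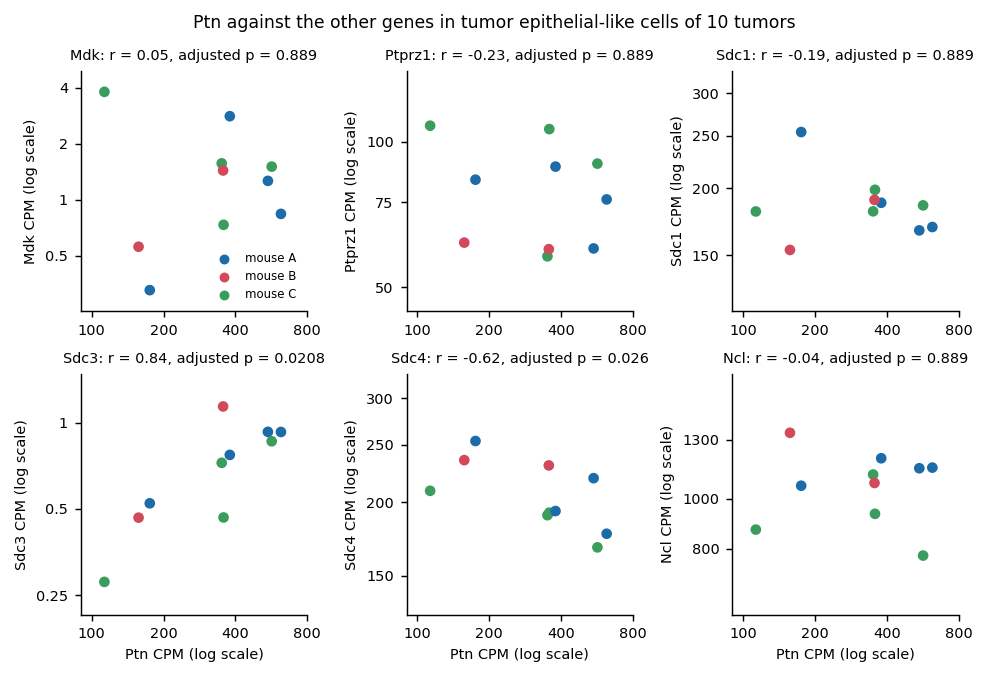
Ptn level of the tumor epithelial-like cells of each tumor (x, CPM, log axis) against the level of each other gene (y, CPM, log axis), with 1 point per tumor and a color per mouse. Sdc3 ran with Ptn (r = 0.84) and Sdc4 against it (r = -0.62), while Ptprz1 did neither (r = -0.23).

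Between mice, none of the 7 genes differed past the test in tumor epithelial-like cells (F statistic, tumors exchanged among mice by exact permutation, adjusted over 7 genes). The lowest p was that of Ncl (exact permutation p = 0.0565, adjusted 0.396), with means of 1138, 1207 and 925 CPM for mice A, B and C. Ptn means were 431, 256 and 347 CPM. In all epithelial cells of the tumors, Ncl did pass (exact permutation p = 0.00381, adjusted 0.0267), with 1047, 985 and 802 CPM.

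The genes whose pattern over 17 tumor cell classes was most like that of Ptn, among 13781 genes compared, were Robo1 (r = 0.96 on the log2 scale), Sox17 (0.96), Sox11 (0.95), Mark1 (0.94) and Ccdc3 (0.94), each highest in tumor epithelial-like cells. Robo1, a guidance receptor, was at 47.8 CPM there, and Sox17, a transcription factor of endoderm, at 63.2 CPM. The genes most like Mdk were Tagln (0.92), Nim1k (0.91), Map1b (0.90), Kctd12b (0.90) and C430049B03Rik (0.89), each highest in fibroblast-like cells, as with the smooth muscle protein gene Tagln at 121 CPM. Of the tumors with at least 20 fibroblast-like cells, tumors 5 and 9 (55 and 42 cells), only tumor 5 had Mdk UMIs in them. These correlations are over classes of the same libraries and are descriptions.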

How the data were processed

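Single-cell RNA sequencing libraries (10x Genomics 3′ v3.1 chemistry) of 10 colon tumors and 3 pieces of adjacent normal mucosa were analysed. The authors called cells and counted UMIs with Cell Ranger (6.0.0 per the submitters' processing notes, against mm10, while the study's methods name an earlier version) and deposited unnormalized counts per gene and barcode for each library. No further normalization had been applied, and the annotation release is not given in the sources used here.

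Cells were kept at 500 or more UMIs, 200 or more genes and a mitochondrial share below 25%, and those with the highest simulated-doublet scores were removed, 0.8% per 1000 barcodes. Counts were log-scaled, and 2000 variable genes were reduced to 30 principal components and clustered by the Leiden method (leidenalg 0.10.2, resolution 1, 20 neighbors, seed 11). The 7 genes and the other listed genes entered neither clustering nor naming. UMIs were summed per library and class (at least 20 cells), and a level is CPM of that sum.

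Sums were tested with edgeR 4.0.16 in R 4.3.3 (TMM scaling, filterByExpr, glmQLFit, glmQLFTest, Benjamini-Hochberg adjustment over all genes tested), each library as a sample. In units of 1000000 UMIs, the epithelial sums held 22.3 to 39.6 in tumors and 58.7 to 78.2 in mucosa. The test was checked on simulated counts. Alternatives were DESeq2 1.42.0, RLE scaling, no filter, the mouse as a replicate block, leaving out each library and other cell filters. Pairing of tumors and mucosa comes from the animal and not from the replicate numbers. Across genes, tumors and mucosa of the same animal had correlated deviations from the group means in mouse A (r = 0.166), B (0.0784) and C (0.206). Across tumors, Pearson's r and Spearman's rho were tested by exact permutation with scipy 1.17.1. Counting intervals and floors cover counting error only.

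Named genes were the 7 in every comparison, up to 4 of each other list and direction past the test with the largest fitted change in epithelium, and the 5 most like Ptn or Mdk over classes. The members and lists were chosen with earlier results of these data known.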

Additional observations from a re-analysis of the deposited data

Results flagged for a closer look

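Within groups of tumors, 57 sets of levels were checked for a sample apart from the rest (Dixon's test at the 95% level), and 4 were past the limit, where chance gives about 1 in 20. In C1q macrophage-like cells, Sdc1 was at 110 CPM in tumor 8, and the next highest tumor had 55.0 CPM. In goblet-like cells, Sdc1 was at 42.0 CPM in tumor 3, with the next at 29.2 CPM. In tumor epithelial-like cells, Sdc1 was at 254 CPM in tumor 6, with the next at 199 CPM. In unnamed cells, Sdc4 was at 63.1 CPM in tumor 7, and the next lowest tumor had 148 CPM.

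For 2 of the 3 genes tested in both classes, the tissue difference was not the same in T cell-like and epithelial cells. The edgeR quasi-likelihood test of the difference itself was used, and 36.2% of all genes tested passed it. The log2 difference in T cell-like minus that in epithelial cells was 3.24 for Sdc4 (SE 0.21) and -0.36 for Ncl (SE 0.12). With the T cell-like cluster that held most tumor cells in place of the class, these were 1.29 for Sdc4 and -0.27 for Ncl (adjusted p = 0.297, edgeR).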

How the results depend on the processing

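In all, 715 values were recomputed, and 644 kept their direction and side of the threshold or stayed close to the value given. With the mouse as a replicate block, which pairs tumors and mucosa of the same animal, 10241 genes differed in epithelium against 9979 without it, Ncl over all cells passed the edgeR test (adjusted p = 0.0209) as did Sdc3 in plasma cell-like cells (0.0362), and no other call on the 7 genes changed. Ncl over all cells also passed with RLE scaling, with DESeq2 and without mucosa 2, tumor 1 or tumor 2. The epithelial Sdc4 call was also lost with the tumors of each mouse summed (adjusted p = 0.0973) and with cells under 10% mitochondrial UMIs (0.108), both by edgeR.

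In the T cell-like cluster with most tumor cells, 1087 genes differed against 4121 in the class, and 2446 differed in the comparison with epithelium against 5633, where Sdc3, with few UMIs in T cell-like cells, turned from -0.01 to 5.01 on the log2 scale with neither past the test. That alternative was chosen after seeing the data. Leaving out 1 library at a time, plasma cell-like calls ranged from 758 (without mucosa 3) to 1482, with 791 without mucosa 2. The log2 fold change of Sdc4 over all cells ranged from -0.070 (without mucosa 1) to 0.14 and that of Sdc1 in T cell-like cells from -0.059 (without mucosa 1) to 1.95 (without mucosa 2), and the difference between T cell-like and epithelial cells from -1.41 to 0.49 for Sdc1 and from -0.64 to 0.76 for Sdc3. The r of Ptn with Mdk ranged from -0.23 to 0.61, with Ptprz1 from -0.42 to 0.11, with Sdc1 from -0.51 to 0.20 and with Ncl from -0.42 to 0.27, and the number of relations past the test from 0 to 2. Over all epithelial cells of each tumor, r was 0.34 for Ptprz1, 0.37 for Sdc1 and 0.27 for Ncl, and 1 gene differed between mice against 0. Without the 2 tumors farthest from the median Ptn level, r was -0.91 for Sdc1 and 0.53 for Mdk and 0 relations passed (exact permutation over 144 arrangements). The causes were not tested.

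With clusters from resolution 2, Sdc4 in tumor epithelial-like cells was at 179 CPM. Thinned to 2000 UMIs, the share of these cells with a UMI was 24.9% for Ptn, 0.324% for Mdk, 17.3% for Ptprz1, 30.2% for Sdc1, 0.202% for Sdc3, 28.6% for Sdc4 and 76.7% for Ncl, since more UMIs per cell detect more cells. Few UMIs limit the precision for Mdk and Sdc3 in epithelium and for Ptn and Ptprz1 in mucosa.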
